A study of Mus musculus with 11 samples.

Results

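The 5 skin tumors raised in mice with a conditional knockout (KO) of Dlx3 were compared with each other, gene by gene, to show what they express in common and where they differ. They are the 5 Dlx3 KO tumor libraries among the 11 libraries of the series. The 3 wild-type skins and 3 Dlx3 KO skins were not used, and no contrast with skin was made. Dlx3 encodes a homeodomain protein that regulates genes in differentiating keratinocytes and in hair. Every tumor came from a Dlx3 KO mouse whose back had received 3 doses of 100 µg DMBA in 200 µl, at intervals of 1 week, and was collected 31 weeks after the start. DMBA is a carcinogen that damages DNA and initiates papillomas and squamous carcinomas in mouse skin. The labels give neither the driver of the conditional knockout nor which tumors shared an animal, so the spread between tumors may mix differences within and between mice. Total RNA of whole tumor pieces was sequenced after removal of ribosomal RNA, and expression was given in RPKM, which scales reads to the length of the gene and the size of the library. In such bulk tissue, fewer cells of a type and less RNA per cell cannot be told apart.

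Keratinocytes of the basal layer make keratins 5 and 14 and divide; on leaving it they switch to keratins 1 and 10 and then build the cornified envelope. In wounds and tumors the suprabasal cells make keratins 6, 16 and 17 in their place, and squamous tumors keep this program to different degrees. A tumor piece also holds stroma, vessels, immune cells and remains of hair follicles, glands and muscle, each with genes of its own.

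Of 24974 genes in the table, 12136 (48.6%) averaged at least 1 RPKM in the 5 tumors and were described by the SD over tumors of log2(RPKM + 0.5), where an SD of 1 corresponds to a typical 2-fold deviation. Urml (mean 1.00142 RPKM) lay just inside this limit and Zfp758 (mean 0.999567 RPKM) just outside. The limit is a mean over the same 5 tumors, so a low gene can pass it through 1 high tumor, which also raises its SD. The libraries held 48986523 to 75647030 alignments, lowest in tumor 5, which alone was sequenced in the first of the 2 runs, so tumor 5 and run cannot be told apart. Ribosomal precursor RNA (Rn45s) stood at 11833 RPKM in tumor 5, while the others held 1178 to 3242 RPKM, and the summed RPKM of tumor 5 was the lowest (350852 against 455359 to 509388). A median-ratio comparison used the genes detected in every tumor that averaged at least 1 RPKM. It put tumor 1 0.25 above and tumor 5 0.32 below the centre on the log2 scale, with tumors 2 to 4 between -0.01 and 0.06. Directions that turn when these shifts are removed are named where they occur. Of 898 named genes with an SD of at least 1, tumor 1 was the highest in 52.1% and tumor 5 the lowest in 52.2%. Counts of list members by tumor are to be read beside these shares, although those counts take in members of any SD. The part of run and of Rn45s in the results was not tested. Xist, which coats the inactive X chromosome, stood at 11.8 RPKM in tumor 1, 12.7 in tumor 2 and 22.0 in tumor 5, against 0.616 in tumor 3 and 0.0941 in tumor 4. Ddx3y, from the Y chromosome, stood at 9.22 RPKM in tumor 3 and 8.54 in tumor 4, and reached at most 0.687 RPKM, in tumor 5, elsewhere. No 2 libraries held identical values.

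Markers of squamous epithelium are given first, with values in the order of tumors 1 to 5 here and throughout. Krt14, the basal type I keratin, was at 5794, 10651, 9115, 14281 and 10198 RPKM (mean 10008 ± 3052, SD, n = 5), the highest mean of the 8 squamous markers. Its partner Krt5 was at 3031, 3505, 2877, 3813 and 4286 RPKM (mean 3502 ± 575, SD, n = 5). Trp63, the master transcription factor of stratified epithelium, was at 30.1, 40.5, 40.5, 31.5 and 34.5 RPKM. The SDs of these 3 genes on the log2 scale were 0.47, 0.24 and 0.20, and tumor 1 was the lowest in Krt14 and Trp63. Sfn, the p53-induced 14-3-3 protein of stratified epithelium, ranged from 988 to 2534 RPKM and Krt17 from 1146 to 3466 RPKM. Krt6a, a keratin of wounded epidermis, was at 1502, 4403, 5168, 4931 and 1471 RPKM, and Krt16 was at 1846, 6782, 5894, 7848 and 1116 RPKM. Both were lower in tumors 1 and 5 than in tumors 2 to 4, by more than 2-fold. Dsg3, the desmosomal cadherin of the lower epidermis, was at 12.9, 23.2, 46.5, 6.16 and 18.96 RPKM. All 8 markers were detected in each tumor. Keratinocytes of skin and follicle make them too, so their presence does not tell tumor from skin.

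What all tumors expressed highly was taken as the genes among the 100 highest in each of the 5 tumors, 71 genes in all. Of these, 52 were ribosomal proteins, led by Rpl41 at 3317 to 4323 RPKM and Rplp1 at 3066 to 4989 RPKM. The other 19 included 6 keratins of the basal layer and of wounded epidermis, Krt14, Krt5, Krt6a, Krt17, Krt16 and Krt6b. Lgals7, a galectin of stratified epithelium, was second to Krt14 at 4886, 7637, 5948, 6627 and 4400 RPKM. Fabp5, the epidermal fatty acid binding protein, was at 3250, 5417, 3652, 5068 and 1472 RPKM. Tumor 5 was the lowest in both as deposited, but in Lgals7 tumor 1 was the lowest after median-ratio and tumor 4 after quantile scaling. Tmsb4x, which binds actin monomers, was the steadiest of the 19 at 945, 971, 900, 1097 and 1037 RPKM (SD 0.11 as deposited). Its SD was 0.27 after median-ratio and 0.28 after quantile scaling. Eef1a1, the factor that brings tRNAs to the ribosome, ranged from 2610 to 3833 RPKM, with an SD of 0.23 as deposited, 0.10 after median-ratio and 0.37 after quantile scaling. Differentiation and desmosome genes were also among the 19. Krtdap, a secreted keratinocyte peptide, was at 2881, 3229, 3634, 2744 and 771 RPKM. Perp, a desmosomal p53 target, was at 1610, 1396, 1941, 1905 and 680 RPKM. Cstdc5, of the stefin A protease inhibitor cluster, varied most among the 19, at 3634, 7386, 2176, 10526 and 697 RPKM (SD 1.55). S100a8, a calcium-binding alarmin of keratinocytes and neutrophils, was at 1606, 4090, 868, 2157 and 555 RPKM. Tumor 5 was the lowest tumor in each of Fabp5, Krtdap, Perp, Cstdc5 and S100a8. High shared rank therefore did not mean a like level. Krt1 and Krt10, at 10292 RPKM or more in tumors 1 and 4, were not in the shared set, since tumor 5 held them at 299 and 463 RPKM.

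**Figure D1:**
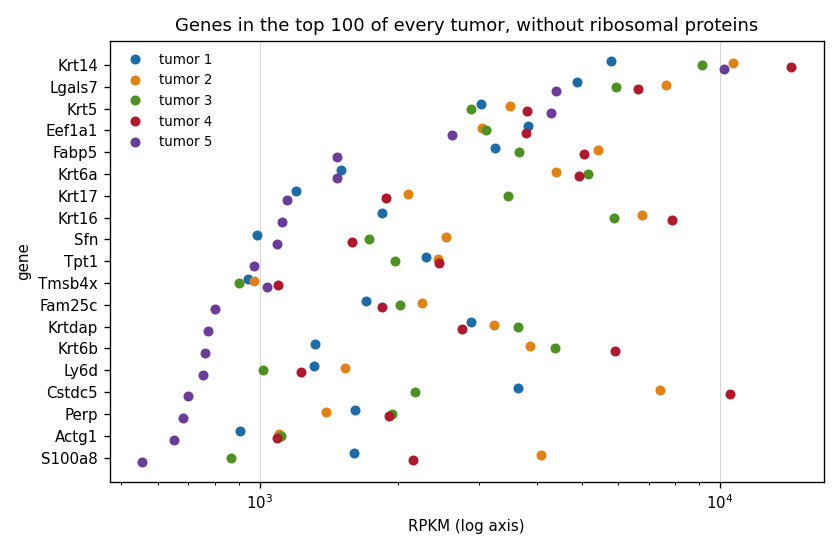
RPKM (x axis, log scale) of the 19 genes other than ribosomal proteins that were among the 100 highest in every tumor; each row is a gene and each point 1 tumor, coloured by tumor. Tmsb4x lies between 900 and 1097 RPKM in all tumors, while Cstdc5 spans 697 to 10526 RPKM, and tumor 5 is often the lowest point, as in Krtdap and Perp.

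The median SD over the 12136 genes was 0.37, and 5928 genes (48.8%) stayed within a 2-fold range over the 5 tumors. An SD of at least 1 was reached by 977 genes (8.05%) and an SD of at most 0.2 by 2068 genes (17.0%). Klhl41 (SD 1.00035) lay just inside the upper limit and Fn1, fibronectin, just outside it (SD 0.999886). High expression was no guarantee of steadiness: the share with an SD of at least 1 was 7.83% among genes of 1 to 3 RPKM and 15.9% among the 201 genes of at least 300 RPKM, while the median SD fell from 0.41 to 0.31. Without tumor 5, 651 genes had an SD of at least 1 and 3734 an SD of at most 0.2.

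**Figure D2:**
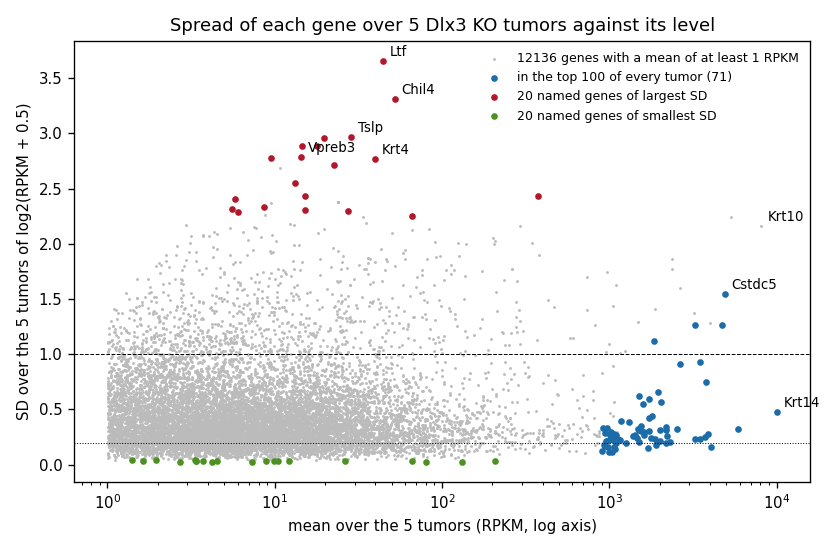
Each point is a gene, with its mean over the 5 tumors in RPKM on the x axis (log scale) and the SD of log2(RPKM + 0.5) over the tumors on the y axis; the dashed line marks an SD of 1 and the dotted line 0.2. Ltf stands highest with an SD of 3.66, and the 71 genes shared among the top 100 (blue) range from low SDs to 1.55 in Cstdc5.

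The 20 genes of smallest SD were Psmb7, Scrn2, Eif3m, Wwc2, E2f6, Tpr, Tmem167, Txndc9, Pak1ip1, Psmc2, Clic1, Ccdc93, Gabpb1, Baz1b, Caap1, Mrs2, Ufm1, Usp45, Wdr90 and Mrpl1. Psmb7, a catalytic subunit of the proteasome (chromosome 2, 38588036 to 38644087, minus strand, GRCm38), was at 131, 134, 131, 136 and 130 RPKM (mean 132 ± 2.33, SD, n = 5). Eif3m, a subunit of translation initiation factor 3, was at 78.4, 79.8, 80.8, 81.0 and 82.3 RPKM. The 5 tumors lay close together in both. Clic1, a chloride channel protein, was at 215, 208, 205, 203 and 206 RPKM. Psmc2, an ATPase of the proteasome, was at 64.5, 64.6, 65.3, 67.2 and 67.7 RPKM. Their place at the bottom depended on the scale. After median-ratio scaling their 20 SDs rose to between 0.15 and 0.23, 13 of the 20 stayed at or under 0.2, and none of the 20 was among the 20 of smallest SD. Median-ratio scaling put Cdc42, the small GTPase of cell polarity, first (SD 0.02), with deposited values of 97.1, 82.1, 80.2, 83.5 and 63.7 RPKM, highest in tumor 1 and lowest in tumor 5 as the scaling factors are. After quantile scaling none of the 20 was found again either, and Pcyt1a, an enzyme of phosphatidylcholine synthesis, came first (SD 0.01). Of the 1992 named genes with an SD of at most 0.2, 54.5% kept it after median-ratio scaling and 47.6% after quantile scaling, so single names in this set are uncertain.

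Steadiness was also read over whole groups. The proteasome list had a median SD of 0.18 over 31 members. Of these 31, 17 were at or under 0.2, against 2068 of all 12136 genes (17.0%). DNA replication genes had a median SD of 0.23 (35 members), oxidative phosphorylation 0.23 (36), ribosomal proteins 0.24 (50), the spliceosome 0.26 (37) and genes of G2 and M phase 0.31 (37). Members at or under 0.2 were 15, 15, 14, 12 and 1 in these lists. The 1 of 37 in G2 and M phase was a smaller share than the 17.0% of all genes. In none of these 6 lists did a member reach an SD of 1, against 8.05% of all genes. After median-ratio scaling the medians were 0.22, 0.30, 0.21, 0.28, 0.24 and 0.45 in the same order, and that of G2 and M phase then lay above the 0.32 of all named genes. Pcna, the clamp that holds DNA polymerase on its template, was at 74.7, 71.3, 76.9, 89.5 and 81.9 RPKM. Cdk1, the kinase that starts mitosis, varied most of the G2 and M genes, at 5.36, 8.33, 16.9, 8.09 and 13.3 RPKM. Ube2c, which helps destroy cyclins, was at 38.5, 59.6, 73.5, 50.1 and 51.1 RPKM. Tumor 3 was the highest in both, but tumor 5 was the highest in Cdk1 after quantile scaling. Of the 37 G2 and M genes tumor 3 was the highest in 23, and in 13 after median-ratio scaling, when tumor 5 led in 24. The least steady ribosomal protein was Rpl34, at 201, 316, 308, 298 and 94.0 RPKM. Hsp90ab1 and Hspa8, abundant chaperones, ranged from 650 to 797 and from 573 to 684 RPKM.

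The 20 genes of largest SD included 5 genes of the B cell lineage and 3 inner root sheath keratins. In order, those reported here were Ltf, Chil4, Tslp, Serpinb6d, Vpreb1, Cd79a, Vpreb3, Igll1, Krt4, Krt71, Retnla, Stfa2, Krt25, Prl2c4, Dynap, Krt27, Clec3b, Cd79b and Sprr3, with SDs from 3.66 down to 2.25. Of the 20, 18 were found again after median-ratio scaling and 17 after quantile scaling. Without tumor 4, 11 were found again, and without tumor 1, 13. In most of them 1 or 2 tumors were high and the rest near 0, and no tumor was high in every one.

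**Figure D3:**
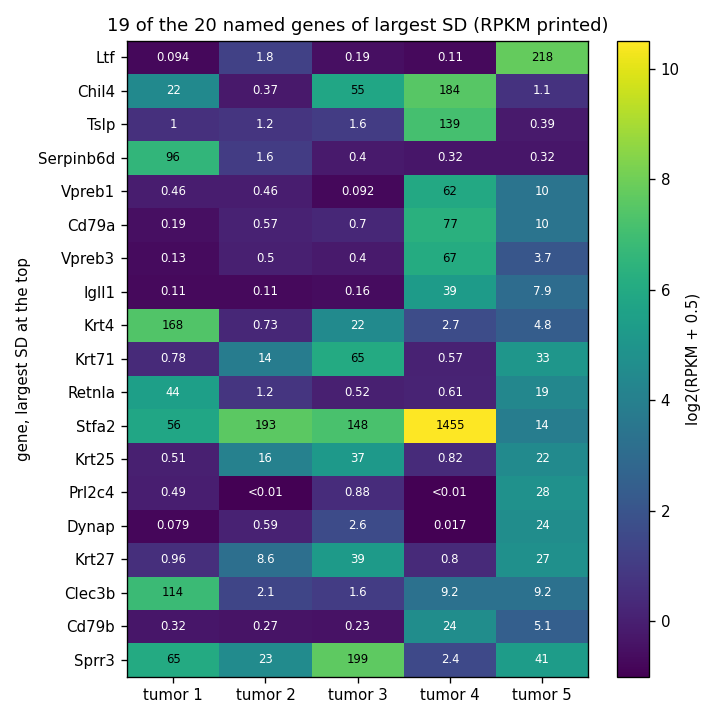
Colour gives log2(RPKM + 0.5) and the printed number the RPKM of 19 of the 20 named genes of largest SD (rows, largest at the top) in each of the 5 tumors (columns). Tumor 4 is high in Tslp and the B cell genes, tumor 5 in Ltf, and tumors 2, 3 and 5 in Krt71, Krt25 and Krt27, while no tumor is high in every row.

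All 5 genes of the B cell lineage among the 20 of largest SD were highest in tumor 4. Vpreb1, a chain of the surrogate light chain that pairs with the immunoglobulin heavy chain in B cell precursors (chromosome 16, 16868403 to 16870843, minus strand), was at 0.464, 0.456, 0.0919, 61.8 and 10.3 RPKM. Igll1, the other chain of that complex and its neighbour on the chromosome (16860671 to 16863985, minus strand), was at 0.111, 0.106, 0.162, 39.1 and 7.85 RPKM. Vpreb3 was at 0.129, 0.502, 0.395, 67.3 and 3.69 RPKM. Tumor 4 was the highest and tumor 5 the second in each, and tumors 1 to 3 stayed at or under 0.502 RPKM. Cd79a, a signaling chain of the B cell receptor, was at 0.194, 0.571, 0.705, 77.4 and 10.2 RPKM. Its partner Cd79b was at 0.315, 0.270, 0.229, 24.4 and 5.08 RPKM. The order of tumors, 4 above 5 above the rest, held in both. Mzb1, a chaperone of antibody-making cells, was at 0.321, 0.387, 0.234, 23.5 and 2.61 RPKM. Spib, a transcription factor of B cells and plasmacytoid dendritic cells, was at 0.328, 0.368, 0.203, 11.0 and 0.714 RPKM. Both followed that order too. The genes of the next 2 sentences were chosen after their values were seen. Pax5, the factor that commits cells to the B lineage, was at 8.80 RPKM in tumor 4, 0.879 in tumor 5 and at most 0.0606 in the others. Rag1, Rag2 and Dntt, which rearrange immunoglobulin genes, were at most at 0.137 RPKM in any tumor, Rag1 and Rag2 highest in tumor 5, and Ms4a1, a marker of mature B cells, reached 0.837 RPKM in tumor 4. Cd3e, a chain of the T cell receptor complex and also chosen after its values were seen, was at 2.52, 1.15, 0.424, 0.913 and 0.417 RPKM, highest in tumor 1. Ebf1, a transcription factor of early B cells chosen likewise, was at 1.70, 0.762, 0.965, 4.42 and 1.19 RPKM, highest in tumor 4 with tumor 1 second as deposited and tumor 5 after either scaling. Il7r, the interleukin 7 receptor of lymphocytes, chosen likewise, was at 2.64, 1.28, 0.517, 2.01 and 1.29 RPKM, highest in tumor 1. Of the 28 members of the lymphocyte list, 12 had a mean of at least 1 RPKM and 5 of these an SD of at least 1 (41.7% against 8.05% of all genes). This share depends on the limit, which Mzb1 passed only through tumor 4. The median SD of the list was 0.89 with the limit and 0.58 without the filter. Tumor 4 was the highest in 6 of the 12, tumor 1 in 4 and tumor 5 in 2.

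Tslp, the keratinocyte cytokine that drives type 2 immunity, was at 1.03, 1.20, 1.58, 139 and 0.387 RPKM, high in tumor 4 alone. Without tumor 4 its SD was 0.53 in place of 2.97. Crlf2, a chain of its receptor (chosen after its values were seen), was at 10.1, 8.72, 8.23, 17.5 and 1.99 RPKM, also highest in tumor 4 but by a smaller margin. Stfa2, a stefin A protease inhibitor, was at 55.7, 193, 148, 1455 and 14.4 RPKM. Rps4l, annotated in GENCODE as a transcribed processed pseudogene, was at 4.36, 1.39, 1.31, 57.1 and 1.19 RPKM. Tumor 4 stood far above the others in both, and Rps4l was named for that gap. Chil4, a chitinase-like secreted protein of type 2 inflammation, was at 21.6, 0.371, 55.0, 184 and 1.09 RPKM, spread over 3 tumors. Bfsp2, a filament protein described in the lens, reached 12.1 RPKM in tumor 4 and 0.719 in tumor 5. Stfa2 lies in a cluster of near-identical copies, as do Cstdc5, Krt6a with Krt6b, and the Sprr2, Lce1, Prl2c and globin genes, so reads could be split among members and the values of single members are uncertain.

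Ltf, lactotransferrin, an iron-binding protein of neutrophil granules and of secretory epithelium (chromosome 9, 111019271 to 111042767, plus strand), had the largest SD of all, at 0.0943, 1.84, 0.187, 0.106 and 218 RPKM. Tumor 5 alone held it at a high level, and its mean over the other tumors was under 1 RPKM. Of other neutrophil granule genes, Ngp was at most at 0.358 RPKM and Camp at most at 0.243 RPKM, both highest in tumor 4, and both were chosen after their values were seen. Ppbp, a platelet and neutrophil-attracting chemokine, was at 0.0448, 0.477, 0.392, 0.154 and 17.6 RPKM. Cxcl5, another neutrophil-attracting chemokine, was at 0.449, 4.56, 0.362, 1.62 and 31.4 RPKM. Tumor 5 was the highest in both. S100a9, the partner of S100a8, was in contrast lowest in tumor 5, at 1395, 3277, 514, 1807 and 379 RPKM, although tumor 3 was the lowest after quantile scaling. The genes next given were named because tumor 2 lay farthest above the others in them. Csf3, the growth factor of neutrophils, was at 0.130, 9.37, 0.427, 0.778 and 0.802 RPKM. Cxcl2, a chemokine for neutrophils, was at 1.09, 37.4, 4.34, 3.15 and 8.72 RPKM. Il19, a cytokine of the interleukin 10 family, was at 0.561, 25.1, 3.50, 5.07 and 2.05 RPKM. Il19 is not a member of the neutrophil list. Of 29 members of the neutrophil list, 19 passed the limit and 15 had an SD of at least 1 (78.9%, against 8.05% of all genes). Their median level was 0.971, 9.37, 2.55, 1.62 and 8.19 RPKM, high in tumors 2 and 5 and low in tumor 1. Tumor 2 was the highest in 9 of the 19 and tumor 5 in 6, and the median was highest in tumor 2 as deposited and in tumor 5 after either scaling. These counts and the share depend on the limit. Ltf, Ppbp and Csf3 passed it only through the tumor where each was highest, which also raised their SDs.

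Prl2c4, a member of the proliferin family of prolactin-like hormones, was at 27.5 RPKM in tumor 5 and at most 0.881 in the others. Dynap was at 24.4 RPKM in tumor 5 and at most 2.60 RPKM, in tumor 3, elsewhere. Ugt2b35, a glucuronosyltransferase, was at 14.8 RPKM in tumor 5 against 0.0623 to 0.396 RPKM. Tumor 5 stood far above the other tumors in all 3, and the mean of each over the other tumors was under 1 RPKM. Prl2c4 and Ugt2b35 are among the genes named because tumor 5 lay farthest above the others, so their gap follows from the choice. The genes next given were named because tumor 5 lay farthest below the others in them. Wfdc12, a protease inhibitor of the whey acidic protein family, was at 47.1, 78.5, 68.5, 136 and 2.68 RPKM. Ly6g6c, of the Ly6 family of surface proteins, was at 403, 177, 195, 379 and 22.7 RPKM. Both were lowest in tumor 5 by a wide gap. Spink7, a serine protease inhibitor of stratified epithelium, was at 1.05 RPKM in tumor 5 against 23.9 to 64.2 RPKM.

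Terminal differentiation differed widely between the tumors. Krt10, the suprabasal type I keratin (chromosome 11, 99385254 to 99389364, minus strand), was at 16428, 7011, 2061, 14158 and 463 RPKM (SD 2.16). Its partner Krt1 was at 10886, 4317, 1058, 10292 and 299 RPKM (SD 2.24). Rptn, repetin of the cornified envelope, was at 292, 124, 129, 468 and 12.3 RPKM. Tumors 1 and 4 were high in these 3 genes and tumor 5 was the lowest in each, with a 35.5-fold range in Krt10. Calm4, a calmodulin-like protein of the upper epidermis, was at 5329, 3135, 1893, 5201 and 531 RPKM, in a like order. Of the 35 genes of the suprabasal and cornified envelope list, 33 passed the limit, 30 had an SD of at least 1 (90.9% against 8.05% of all genes) and the median SD was 1.60. Tumor 1 was the highest in 21 and tumor 5 the lowest in 24, and in 17 and 23 after median-ratio scaling. Without tumor 5 the median SD was 0.93. The late envelope genes of the Lce1 cluster followed another order. Lce1a1 was at 374, 11.1, 108, 100 and 33.9 RPKM. Lce1i was at 118, 3.62, 39.3, 27.8 and 10.8 RPKM. There tumor 1 was again the highest, but tumor 2 was the lowest.

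Keratins and envelope proteins of stressed epidermis were also widely spread, with a different order of tumors. Their list had 36 members, of which 34 passed the limit and 28 had an SD of at least 1 (82.4%, against 8.05% of all genes). The median SD was 1.28. The median member was at 106, 117, 192, 159 and 27.5 RPKM. Tumor 3 was the highest in 17 members and tumor 5 the lowest in 28, and tumor 5 stayed lowest in 26 after median-ratio scaling. Krt6b, a wound keratin, was at 1316, 3873, 4387, 5903 and 760 RPKM. Sprr2b, a small proline-rich envelope protein, was at 131, 210, 36.6, 241 and 8.47 RPKM. Sprr3, its relative in mucosal epithelium, was at 65.4, 23.2, 199, 2.45 and 41.2 RPKM. Tumor 4 was thus the highest tumor for Sprr2b and the lowest for Sprr3. Basal genes were steadier, with a median SD of 0.48 over 17 members and 2 members at an SD of at least 1 (11.8%, against 8.05% of all genes). Those were Krt15, a keratin of resting basal and bulge cells, at 443, 74.6, 110, 96.8 and 51.9 RPKM, and Dsg3. Tumor 1 was the lowest in 9 of the 17 basal genes, although it was the highest in Krt15.

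Keratins of mucosal epithelium differed between the tumors. Krt4, the type II keratin of mucosal epithelium (chromosome 15, 101918535 to 101924735, minus strand), was at 168, 0.727, 22.4, 2.69 and 4.81 RPKM. Its usual partner Krt13, a member of the list chosen after its values were seen, was at 67.0, 256, 1374, 47.9 and 156 RPKM. The highest tumor was thus tumor 1 for Krt4 and tumor 3 for Krt13. Psca, a surface protein of mucosal epithelium, was at 11.0, 3.56, 66.8, 2.43 and 84.1 RPKM. Slpi, an inhibitor of leukocyte proteases, was at 567, 677, 2031, 164 and 253 RPKM. Of 22 mucosal and simple epithelial genes, 15 passed the limit and 7 had an SD of at least 1 (46.7%, against 8.05% of all genes). Tumor 4 was the lowest in 7 of the 15 and the highest in none of them.

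Of the keratins of the inner root sheath, the sleeve that guides the growing hair, 3 were among the 20 genes of largest SD. Krt71 was at 0.779, 13.6, 64.5, 0.567 and 32.8 RPKM. Krt25 was at 0.512, 15.9, 36.6, 0.822 and 22.0 RPKM. Krt27 was at 0.956, 8.59, 38.6, 0.802 and 27.1 RPKM. In each of them tumors 2, 3 and 5 were at least 8.59 RPKM and tumors 1 and 4 under 1 RPKM, in the order 3, 5, 2. Krt73, another keratin of the inner root sheath, did not follow that order and was at 16.0155, 9.61, 7.04, 1.30 and 7.44 RPKM, highest in tumor 1. Tchh, trichohyalin of the inner root sheath, chosen after its values were seen, was at 2.74, 6.88, 30.4, 2.69 and 21.8 RPKM. Sox2, a transcription factor of the hair papilla and of squamous carcinoma, chosen likewise, was at 0.446, 4.16, 20.3, 0.287 and 12.6 RPKM. In both tumors 3, 5 and 2 came first in that order. Krt35, a keratin of the hair cortex, was at 23.9, 6.33, 6.30, 0.778 and 7.56 RPKM, highest in tumor 1. The hair list as a whole had 42 members, 35 past the limit and 15 at an SD of at least 1 (42.9%, against 8.05% of all genes). Tumor 5 was the highest in 16, tumor 1 in 11 and tumor 3 in 6, and tumor 4 was the lowest in 24.

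Several genes of follicle stem cells and of Hedgehog and Wnt signaling were high in tumor 1. Lhx2, a transcription factor of hair follicle stem cells, was at 40.7, 2.47, 1.29, 1.63 and 1.53 RPKM. Gli1, the transcription factor that reports Hedgehog activity, was at 23.1, 2.39, 1.29, 0.474 and 0.915 RPKM. Wif1, a secreted Wnt inhibitor, was at 18.8, 3.65, 1.0, 0.445 and 0.975 RPKM. Tumor 1 was several-fold above every other tumor in all 3, and Lhx2 was named for that gap. Of 15 follicle stem cell genes, 13 passed the limit and 8 had an SD of at least 1 (61.5%, against 8.05% of all genes). Tumor 1 was the highest in 9, and in 7 after median-ratio scaling. Without tumor 1 the median SD went from 1.17 to 0.65. The list of Wnt, Hedgehog and Notch signaling had 7 of 27 members at an SD of at least 1 (25.9%, against 8.05% of all genes). Tumor 1 was the highest in 15 of the 27, and in 13 after median-ratio scaling. Of all named genes with an SD of at least 1 it was the highest in 52.1%, or 36.8% after median-ratio scaling. Those shares cover only genes with an SD of at least 1, while the list count covers members of any SD. They are therefore no like background for this list, and the share over all genes was not computed. Sox9, another follicle stem cell factor, went the other way, at 20.001, 15.6, 14.3, 5.10 and 37.3 RPKM. Tumor 5 held it highest and tumor 4 lowest. Serpinb6d, a serine protease inhibitor, was at 95.6, 1.59, 0.404, 0.321 and 0.321 RPKM. Cyp2f2, a cytochrome P450, was at 54.4, 0.618, 1.55, 3.43 and 2.05 RPKM. Both genes, named because tumor 1 lay farthest above the others in them, were high in tumor 1 alone.

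Most stromal genes were highest in tumor 1 or 4 and lowest in tumor 5. Col1a1, the main collagen of dermis, was at 455, 287, 216, 382 and 55.8 RPKM. Postn, periostin of activated fibroblasts, was at 89.9, 82.4, 74.5, 148 and 10.1 RPKM. Both were lowest in tumor 5. Dcn, decorin, a small proteoglycan of dermal collagen, was at 309, 51.8, 16.5, 48.2 and 22.5 RPKM, lowest in tumor 3. Of 28 fibroblast and matrix genes, 27 passed the limit and 18 had an SD of at least 1 (66.7%, against 8.05% of all genes). Tumor 5 was the lowest in 24 of them and in 23 after median-ratio scaling, and the median SD was 0.58 without tumor 5 and 1.14 with it. Clec3b, tetranectin, was at 114, 2.12, 1.57, 9.24 and 9.18 RPKM. Vim, the filament protein of mesenchymal cells, was at 319, 77.2, 74.3, 157 and 53.9 RPKM. Both were highest in tumor 1. Of 19 endothelial genes past the limit 1 had an SD of at least 1 (5.26%, against 8.05% of all genes), and their median SD was 0.51. That gene was Plvap, of fenestrated vessels, at 46.1, 10.1, 15.4, 30.6 and 7.46 RPKM. In 18 of those 19 tumor 5 was the lowest, and in 12 after median-ratio scaling.

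Skeletal muscle genes pointed the other way. Tnnc2, fast troponin C, was at 15.0, 18.1, 6.40, 4.84 and 140 RPKM. Pvalb, parvalbumin of fast fibres, was at 4.15, 4.23, 1.90, 1.28 and 58.3 RPKM. Myh4, a fast myosin, was at 1.15, 2.34, 1.09, 0.646 and 29.1 RPKM. Tumor 5 was the highest in each of the 17 of 24 muscle genes that passed the limit. All 17 had an SD of at least 1 (100%, against 8.05% of all genes), with a median of 1.52 that became 0.75 without tumor 5. Since the limit includes tumor 5, low members could pass it through that tumor, and the members below it are not in these counts. Fat genes were the highest in tumor 1 in 9 of 14, and in 7 after median-ratio scaling. Cfd, the adipocyte protease adipsin, was at 132, 5.24, 4.94, 60.0 and 47.5 RPKM. Adipoq, adiponectin, was at 8.76, 0.524, 0.473, 4.25 and 4.61 RPKM. Fabp4, the fatty acid binding protein of adipocytes and endothelium, was an exception at 303, 1250, 2984, 408 and 338 RPKM, highest in tumor 3. The 5 red cell genes past the limit were all highest in tumor 2 and lowest in tumor 1, with Hba-a2, an alpha globin, at 18.6, 614, 183, 182 and 34.5 RPKM. Dct, a melanin synthesis enzyme, was at 11.0, 31.7, 4.06, 2.91 and 5.76 RPKM, highest in tumor 2. The share of blood, muscle, fat and nerve in each piece is not given by the labels, and its part in the other results was not tested.

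Antigen presentation and interferon genes shared an order, with tumor 1 highest, tumor 4 second and tumor 3 low. H2-Eb1, a class II chain, was at 75.5, 27.9, 2.48, 54.0 and 19.5 RPKM. Cd74, the class II invariant chain, was at 389, 115, 93.4, 272 and 72.6 RPKM. B2m, the shared chain of class I molecules, was at 856, 440, 257, 525 and 365 RPKM. Tumor 1 was the highest in all 15 of the 16 class II and presentation genes that passed the limit, and in 14 after quantile scaling. Tumor 3 was the lowest in 9 and, after median-ratio scaling, in 13. The median SD of this list was 0.76, and 3 of its 15 genes reached an SD of 1 (20%, against 8.05% of all genes). Ifi27l2a, induced by interferon, was at 33.1, 2.09, 1.06, 6.07 and 3.78 RPKM. Isg15, a ubiquitin-like interferon product, was at 29.5, 7.0, 3.75, 12.4 and 6.76 RPKM. Of 33 interferon-stimulated genes 25 passed, with tumor 1 the highest in 21 and, after quantile scaling, in 17. Oasl1, of the same family, was an exception at 1.92, 2.58, 14.7, 0.812 and 0.910 RPKM, highest in tumor 3. Macrophage and dendritic cell genes were the highest in tumor 1 in 16 of 20, and their median SD went from 0.90 to 0.59 without it. Lyz2, lysozyme of myeloid cells, was at 116, 33.2, 22.9, 61.5 and 34.9 RPKM. Retnla, a marker of type 2 macrophages, was at 44.2, 1.23, 0.522, 0.615 and 19.4 RPKM, high in tumors 1 and 5. Mcpt4, a mast cell chymase, was at 29.5, 15.0, 9.78, 14.8 and 3.13 RPKM, and tumor 5 was the lowest in 8 of 9 mast cell genes, or 6 after median-ratio scaling.

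Genes of lipid synthesis were mostly lowest in tumor 5. In the cholesterol list tumor 1 was the highest in 18 and tumor 5 the lowest in 21 of 22 genes; after median-ratio scaling these counts were 8 and 17, tumor 3 leading with 9. The median SD of 0.65 became 0.38 without tumor 5. Elovl3, a fatty acid elongase of sebaceous and hair cells, was at 62.3, 44.3, 11.0, 5.51 and 2.76 RPKM. Of 18 sebaceous genes, 9 had an SD of at least 1 (50%, against 8.05% of all genes). Detoxifying enzymes differed by gene. Aldh3a1, an aldehyde dehydrogenase of epithelia, was at 98.5, 7.88, 8.83, 3.17 and 17.1 RPKM, highest in tumor 1. Gsta4, a glutathione transferase for lipid aldehydes, was at 440, 677, 1689, 676 and 1799 RPKM, high in tumors 3 and 5. Tumor 3 was the highest in 15 of 26 genes of this list and in 14 after median-ratio scaling. Hspa1a, the inducible heat shock protein, was at 86.2, 41.9, 33.7, 65.1 and 9.16 RPKM, against a median SD of 0.32 over the 26 heat shock and unfolded protein genes. Gapdh, of glycolysis, was at 681, 1126, 1222, 1419 and 801 RPKM. None of 25 glycolysis and hypoxia genes reached an SD of 1, against 8.05% of all genes. Their median SD of 0.40 was nevertheless slightly above the 0.37 of all genes, and Egln3 came close to the limit with 0.98.

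The genes of the pathway named in the series title varied moderately. Dlx3 itself (chromosome 11, 95120119 to 95125296, plus strand) was at 4.16, 7.61, 7.52, 1.93 and 1.34 RPKM (SD 0.98); the labels do not say which exon was deleted, so reads over the whole gene do not measure the loss. Tumors 2 and 3 were the highest and tumors 4 and 5 the lowest. Egfr, the receptor of epidermal growth factor, was at 6.47, 4.45, 4.25, 4.30 and 3.0 RPKM (SD 0.35). Erbb2, its partner without a ligand, was at 32.7, 19.3, 19.999, 18.2 and 9.50 RPKM (SD 0.62). Erbb3, a receptor with little kinase activity, was at 18.6, 9.33, 11.3, 10.8 and 7.13 RPKM (SD 0.48). Tumor 1 was the highest and tumor 5 the lowest in all 3 receptors. Hbegf, a ligand of Egfr, was at 17.8, 40.2, 75.6, 13.9 and 63.1 RPKM. Areg, amphiregulin, was at 6.08, 22.9, 32.4, 24.0 and 23.2 RPKM. Nrg1, a ligand of Erbb3, was at 0.285, 2.74, 4.13, 1.06 and 8.29 RPKM. Tumor 1 was the lowest for Areg and Nrg1 and tumor 4 for Hbegf, unlike the receptors. In the ERBB list 2 of 18 genes, Nrg1 and Hbegf, had an SD of at least 1 (11.1%, against 8.05% of all genes). Of the Ras genes, chosen after their values were seen, Nras ranged from 22.0 to 24.2 and Hras from 67.7 to 107 RPKM. DMBA tumors are known to carry Ras mutations, which expression levels do not show.

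Among brakes on the cell cycle, Cdkn2a, which encodes p16 and p19Arf, was at 8.22, 41.3, 51.2, 31.2 and 96.7 RPKM, lowest in tumor 1 and highest in tumor 5. It was the 1 of 18 list members with an SD of at least 1 (5.56%, against 8.05% of all genes). Cdkn1a, encoding p21, ran in the other direction at 146, 105, 104, 124 and 38.4 RPKM, lowest in tumor 5. Among invasion-related proteases, Mmp13, a collagenase, was at 2.15, 31.7, 10.3, 26.3 and 7.72 RPKM. Mmp10, a stromelysin, was at 0.275, 11.7, 4.01, 5.86 and 2.51 RPKM. Tumor 1 was the lowest in both. Fosl1, an AP-1 subunit, was likewise lowest in tumor 1, at 0.921, 8.17, 19.01, 4.19 and 3.10 RPKM. Inhba, the activin A subunit, was at 1.77, 7.98, 4.62, 2.44 and 23.1 RPKM, highest in tumor 5. Il24, an epithelial cytokine of the interleukin 10 family, was at 0.565, 13.7, 7.10, 5.34 and 3.84 RPKM, lowest in tumor 1. Cdh1, E-cadherin of epithelial junctions, was nearly level at 63.8, 59.5, 77.9, 50.5 and 60.0 RPKM (SD 0.22). Of the genes named because tumor 3 lay farthest above the others, Baiap2l1, an actin-bundling adaptor, was at 4.06, 3.77, 41.5, 2.84 and 1.87 RPKM. Nppc, C-type natriuretic peptide, was at 14.9 RPKM there against 0.379 to 1.45 RPKM in the others.

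Over all genes, tumors 2 and 3 were the most alike: Pearson's r across the 12136 genes was 0.965 and 594 genes (4.89%) differed by more than 2-fold. Tumors 1 and 5 were the least alike (r = 0.844, 3919 genes, 32.3%). These values describe pairs of libraries over genes, which are not independent replicates. Of the 898 named genes with an SD of at least 1, tumor 1 was the highest in 468 (52.1%) and tumor 5 the lowest in 469 (52.2%). After median-ratio scaling the counts were 280 (36.8%) and 282 (37.1%) of 760 genes, and after quantile scaling 278 (36.7%) and 290 (38.3%) of 758. Tumors 1 and 5 thus remained the extremes most often, by less. Of these 898 genes as deposited, those in which 1 tumor lay apart from the 4 others, by a gap over 0.71 of the range, numbered 56 above for tumor 1, 20 above and 32 below for tumor 5, 7 above each for tumors 3 and 4, 1 below for tumor 4 and 1 above for tumor 2. Of the 36 gene lists, 29 had a larger median SD than all genes together (0.37).

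**Figure D4:**
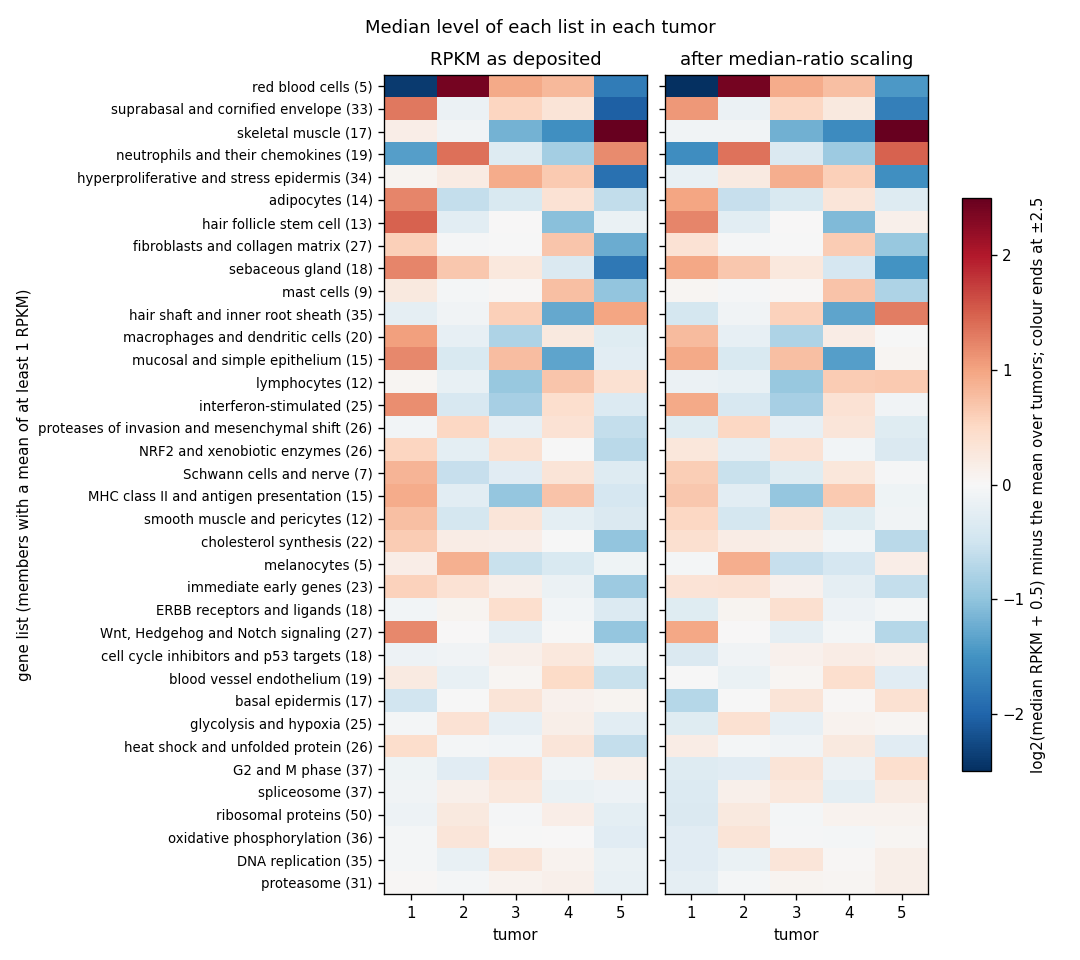
Rows are the 36 gene lists, ordered by median SD with the largest at the top and the number of members past the limit in brackets; columns are the 5 tumors; colour is log2(median RPKM + 0.5) minus the mean over tumors, as deposited (left) and after median-ratio scaling (right). Red blood cell genes peak in tumor 2, skeletal muscle genes in tumor 5 and cornified envelope genes in tumor 1, with little colour in the proteasome row at the bottom.

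A feature that the SD does not use, the TATA box of the core promoter, was counted in steady and in variable genes. It binds the TATA-binding protein a short way before the start of many strongly regulated genes. The letters TATAAA were searched on the gene's strand in the 50 bases before each annotated start, in RefSeq promoters of GRCm38.p6. Of 27025 genes with a promoter there, 851 (3.15%) held the motif, as did 238 (2.61%) of 9113 named genes past the 1 RPKM limit. Among genes with an SD of at least 1 it was 84 of 673 (12.5%), and among those with an SD of at most 0.2 it was 13 of 1624 (0.800%). The shares were 14.3% and 0.444% when the groups were formed after median-ratio scaling, and 14.0% and 0.665% after quantile scaling. Outside the 36 lists, which hold many keratin and envelope genes of shared ancestry, they were 45 of 520 (8.65%) and 10 of 1557 (0.642%). Restricted to genes whose RefSeq start lay within 100 bases of the GENCODE gene start, they were 69 of 519 (13.3%) and 8 of 1267 (0.631%). On the opposite strand (TTTATA), 1.34% of variable and 0.369% of steady genes had a match. The motif was present in 14 of 28 hair genes, 9 of 26 cornified envelope genes and 12 of 26 stress genes with a promoter in the table, and in 0 of 25 proteasome genes. Of the 36 lists only these were searched as lists, so they do not stand for variable and steady lists in general. Of the 20 genes of largest SD 13 had a promoter and 6 the motif (Chil4, Krt71, Retnla, Krt25, Krt27 and Sprr3), while Ltf, Serpinb6d, Vpreb1, Cd79a, Vpreb3, Igll1 and Stfa2 lacked it; of the 20 of smallest SD 15 had a promoter and 0 the motif. These shares are descriptions with no test, and the search was chosen after the spread of the genes had been seen.

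**Figure D5:**
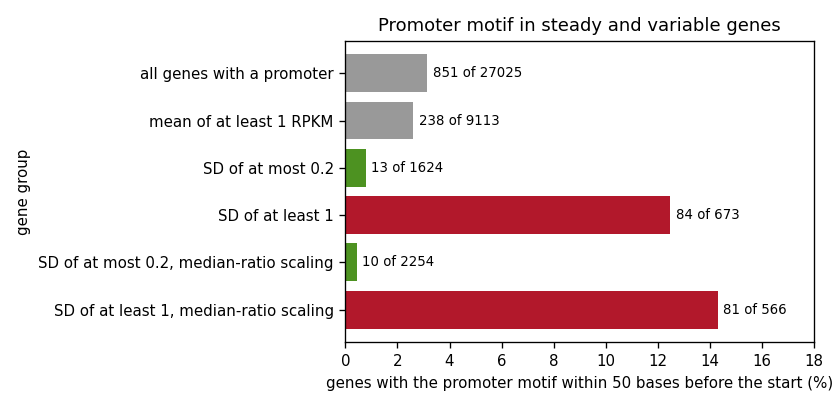
Bars give the percentage of genes with the TATA motif in the 50 bases before the start, for groups of genes (rows), with counts printed beside each bar. The groups with an SD of at least 1 stand at 12.5% and, after median-ratio scaling, 14.3%, and those with an SD of at most 0.2 at 0.800% and 0.444%.

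Printed are the 100 bases before the start of 5 variable genes chosen because they hold the motif, Chil4, Krt71, Krt25, Sprr3 and Krt10, 2 variable genes that lack it, Ltf and Igll1, 1 keratin that was high in all tumors, Krt5, and 2 genes of small SD, Eif3m and E2f6, a transcription factor of the E2F family. Capitals mark the motif, and the last base is the one before the RefSeq start.
Chil4 (chr3:106219480-106219579, minus strand): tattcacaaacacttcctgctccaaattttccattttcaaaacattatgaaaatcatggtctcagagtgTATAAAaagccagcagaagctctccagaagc
Krt71 (chr15:101743098-101743197, minus strand): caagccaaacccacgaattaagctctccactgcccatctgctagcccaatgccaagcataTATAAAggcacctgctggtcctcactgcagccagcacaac
Krt25 (chr11:99322952-99323051, minus strand): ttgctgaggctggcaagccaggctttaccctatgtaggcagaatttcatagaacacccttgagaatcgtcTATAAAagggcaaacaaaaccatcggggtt
Sprr3 (chr3:92458721-92458820, minus strand): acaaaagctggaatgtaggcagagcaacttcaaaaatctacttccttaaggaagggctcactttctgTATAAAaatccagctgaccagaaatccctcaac
Krt10 (chr11:99389365-99389464, minus strand): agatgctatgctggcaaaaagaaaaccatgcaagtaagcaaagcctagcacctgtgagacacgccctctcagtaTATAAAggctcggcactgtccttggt
Ltf (chr9:111019192-111019291, plus strand): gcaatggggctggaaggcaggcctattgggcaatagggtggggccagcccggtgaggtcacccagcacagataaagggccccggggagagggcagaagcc
Igll1 (chr16:16863986-16864085, minus strand): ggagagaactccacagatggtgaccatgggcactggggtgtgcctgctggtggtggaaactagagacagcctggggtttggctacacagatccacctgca
Krt5 (chr15:101712906-101713005, minus strand): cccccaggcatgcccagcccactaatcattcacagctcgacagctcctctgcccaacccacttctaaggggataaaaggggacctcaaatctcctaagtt
Eif3m (chr2:105017028-105017127, minus strand): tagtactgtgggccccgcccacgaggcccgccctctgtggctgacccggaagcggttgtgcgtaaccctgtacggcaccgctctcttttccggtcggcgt
E2f6 (chr12:16810865-16810964, plus strand): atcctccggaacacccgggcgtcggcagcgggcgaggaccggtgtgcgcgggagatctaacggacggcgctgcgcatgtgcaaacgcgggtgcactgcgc

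In the 5 variable genes that hold it the motif began 26 bases (Krt10) to 40 bases (Krt71) before the start, with Chil4 at 31, Krt25 at 30 and Sprr3 at 33. Krt10 and Krt5, both keratins, had SDs of 2.16 and 0.24, and the letters stood in the window of Krt10 and not in that of Krt5. The windows of Krt5 and Ltf hold the near match gataaa, which the search did not count, so they are not shown to lack a TATA-like element. A match describes these letters in these windows only, and binding was not measured.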

How the data were processed

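RNA-seq libraries of 5 Dlx3 KO tumors (single-end reads of 50 bp) were analysed. Per the file headers, the authors mapped reads to mm10 with Tophat and made RPKM values in Partek. bcl2fastq 2.20.0.422, TopHat2 2.1.1 and Bowtie are named in the submitters' processing notes. The deposited sample sheet gives the count of alignments per library, and the share of alignments in genes is not given. If RPKM was scaled to these alignments, 1 RPKM stood for 49.0 to 75.6 reads per kb of gene. Read counts per gene were not used, so each value carries a counting error that cannot be computed.

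The SD (n - 1) over tumors of log2(RPKM + 0.5) was computed for genes averaging at least 1 RPKM. With 1 group and no contrast, no test was run and no p-value is given. Named are the 20 genes of largest and of smallest SD and the 20 shared high genes with the highest minimum. Also named are the 5 genes by which each tumor lay farthest above or below the others, and up to 3 most variable and 3 most abundant members of a list. Dlx3, Egfr, Erbb2, Erbb3, Xist, Ddx3y and Rn45s were always included, and genes beside a threshold or first under a scaling were added. Predicted, clone-named, small RNA, ribosomal RNA, mitochondrial, immune receptor segment and sex-marker genes were left out of the rankings. Some genes that this rule or a list would name are not reported here. Members, lists and thresholds were chosen with earlier results of these data known.

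Alternatives were pseudocounts of 0.1 and 1, no filter or a mean of at least 10 RPKM, median-ratio and quantile scaling, other rankings and leaving out each tumor. Of the gene symbols, 24458 (97.9%) matched GENCODE M21 (GRCm38), the source of coordinates. Promoters came from RefSeq (GRCm38.p6), and their starts were compared with GENCODE starts. Calculations used Python 3.11.15, numpy 2.4.6, pandas 2.3.3 and matplotlib 3.10.9, and the scripts were tested on simulated data.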

Additional observations from a re-analysis of the deposited data

Results flagged for a closer look

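Genes of the text in which 1 tumor lay apart from the other 4 were looked for, taking the gap to the nearest other tumor as a share of the whole range on the log2(RPKM + 0.5) scale. A share above 0.71 marks such a gene, and chance alone marks about 1 in 20. Over all 12136 genes 1010 (8.32%) were marked, and 25 of the 163 genes in the text, many of which were chosen for such gaps.

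Tumor 5 lay above the rest in Rag2 (gap share 0.942), Ugt2b35 (0.859), Ppbp (0.833), Ltf (0.768), Prl2c4 (0.748), Myh4 (0.721) and Pvalb (0.720). It lay below in Krtdap (0.819), Cdkn1a (0.748), Postn (0.740), Spink7 (0.739), Wfdc12 (0.720) and Ly6g6c (0.713). Rag2 was under 1 RPKM in every tumor, so its gap is between values near 0.

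Tumor 1 lay above in Lhx2 (0.839) and Serpinb6d (0.804), and below in Rpl41 (0.867) and Areg (0.790). Tumor 4 lay above in Ms4a1 (0.931), Tslp (0.832), Spib (0.804) and Bfsp2 (0.729), with Ms4a1 also under 1 RPKM in every tumor. Tumor 3 lay above in Baiap2l1 (0.773) and Nppc (0.721). Tumor 2 lay above in Csf3 (0.736) and below in Wwc2 (0.751), a gene whose whole range was small.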

How the results depend on the processing

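No paired analysis was possible because the tumors form 1 group and were compared with no other. Of the 20 genes of largest SD, 11 to 18 were found again when a tumor was left out, the fewest without tumor 4 (11) and tumor 1 (13). Of the 20 of smallest SD, 0 were found again after median-ratio or quantile scaling or without the filter, 7 at a mean of at least 10 RPKM, and 1 to 11 when a tumor was left out. At a mean of at least 10 RPKM, 412 genes had an SD of at least 1 and 839 an SD of at most 0.2. Without the filter the latter were 9852, since genes near 0 vary little on this scale. Leaving out a tumor gave 651 to 1246 and 2016 to 3734 genes. Genes with tumor 1 apart numbered 36 after median-ratio scaling, 33 after quantile scaling and 6 at a mean of at least 10 RPKM, where tumors 2, 3, 4 and 5 had 0, 3, 1 and 29. For tumor 2 there were 0 after either scaling and 0 to 2 when another tumor was left out. For tumor 3 there were 4 with a pseudocount of 0.1 and 4 to 11, and for tumor 4 there were 5 to 19, when another tumor was left out. The shared high genes were 28 among the top 50 and 154 among the top 200. The share of steady genes with the TATA motif was 0.444% when groups were formed after median-ratio scaling. For the other changes the cause was not tested.

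The median SD of the endothelial list was 0.34 after quantile scaling, that of the hair list 1.92 at a mean of at least 10 RPKM, and that of the lymphocyte list 0.58 without the filter. The number of tumors and the missing read counts limit the precision of genes near 1 RPKM most.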
